A study of Mus musculus with 12 samples.

Results

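Metallothioneins, glutathione enzymes and heme and quinone enzymes protect cells from metals and oxidants, and 10 genes that encode them were followed over the estrous cycle of the mouse uterus. The genes were taken by name, with earlier results of these data known. They were Mt1, Mt2, Hmox1, Nqo1, Gclm, Gpx1, Gpx3, Gstm1, Gstm2 and Gsto1, out of 35896 genes with a matched transcript. All 10 had counts, and 9 passed the filter on low counts, Hmox1 being the exception. The samples were 12 whole uteri of wild-type female Swiss Webster mice, an outbred stock, aged 8 to 12 weeks, with 3 uteri each in proestrus (replicates 1, 2 and 3), estrus (3, 4 and 5), metestrus (5, 6 and 7) and diestrus (3, 4 and 5). The labels set the groups apart by the stage of the cycle, and name no treatment or allele for any of them. How an animal was staged, the time of day and the batch are not given in the sources used here. Polyadenylated RNA was read by 3' TagSeq, a method that sequences a fragment near the 3' end of each RNA. No label ties a sample to a named animal, so the p-values measure the spread between these samples.

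Metallothioneins are small cysteine-rich proteins that bind zinc and copper. Their genes are switched on by metals through the factor MTF1, which binds metal response elements, and by glucocorticoids. Glutathione is the main small thiol of the cell: glutamate-cysteine ligase makes its precursor, glutathione peroxidases use it to reduce hydrogen peroxide and lipid peroxides, and glutathione transferases attach it to reactive compounds. Hmox1 (heme oxygenase 1), Nqo1 (a quinone reductase) and Gclm (the modifier subunit of glutamate-cysteine ligase) are textbook targets of the oxidant-responsive factor NRF2, encoded by Nfe2l2. In the cycling uterus estrogen rises in proestrus, and progesterone is highest in the luteal phase that follows ovulation.

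Depth ran from 1652841 to 2200563 estimated counts per sample. Levels are given as CPM, counts scaled by library size and TMM factors, and 3 counts, the most that a count of 0 allows, correspond to 1.37 to 1.89 CPM depending on the sample. This limit covers counting error only, as no molecular identifiers were described. The 3 metestrus libraries differed more from each other than those of any other stage (chi-square per degree of freedom 10.6 to 15.6, against at most 9.04 elsewhere), so calls of members that rest on metestrus are given below with and without its libraries. Summed levels of 7 uterine markers, of which 6 changed over the stages, lay between 474 and 531 CPM in estrus, below the values of every other stage, which reached 919 CPM in proestrus, 1050 CPM in metestrus and 1280 CPM in diestrus. Those of 6 ovary markers lay between 10.1 and 26.5 CPM, with the oocyte gene Zp3 at 0 in every sample.

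Mt1 (ENSMUSG00000031765, GRCm38 chromosome 8, 94179082 to 94180327) and Mt2 (ENSMUSG00000031762, chromosome 8, 94172664 to 94173568) are neighbours on the plus strand. Their coding sequences, 186 bases each, are 79.6% identical, and the 2 genes share no run of 31 bases. The 250 bases before the RefSeq start of each gene are shown (GRCm38.p6, plus strand, chr8:94178839-94179088 for Mt1 and chr8:94172368-94172617 for Mt2). These windows differ in matches to the metal response element core, searched as TGCACNC and TGCGCNC on both strands and set in capitals.
Mt1: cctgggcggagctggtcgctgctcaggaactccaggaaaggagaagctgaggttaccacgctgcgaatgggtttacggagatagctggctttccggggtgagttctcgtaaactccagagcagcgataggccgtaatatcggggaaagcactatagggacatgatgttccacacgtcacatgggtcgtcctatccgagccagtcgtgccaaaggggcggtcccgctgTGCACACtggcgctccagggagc
Mt2: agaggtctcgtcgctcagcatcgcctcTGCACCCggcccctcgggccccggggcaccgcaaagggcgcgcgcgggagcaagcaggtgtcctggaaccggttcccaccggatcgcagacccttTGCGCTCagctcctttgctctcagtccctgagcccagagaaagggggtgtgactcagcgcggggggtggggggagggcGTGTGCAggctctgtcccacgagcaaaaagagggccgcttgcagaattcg
The Mt1 window held 1 match, which began 23 bases before the start. The Mt2 window held 3 matches, which began 223, 128 and 50 bases before it. These counts depend on which start is listed, and sequence outside the windows, such as that after the listed start, was not searched. They therefore do not say which gene has more such elements in its whole promoter. Of 32851 promoter windows of the same length, 21.4% held at least 1 match and 1.26% at least 3. The antioxidant response element core, searched as TGACNNNGC on both strands, was found once in the Mt2 window, 79 bases before the start, and in 10.2% of all windows. Among the other members, Gclm held 1 antioxidant and 2 metal matches and Gstm1 1 metal match, at a single site that lies in both of its overlapping listed windows. No match of either kind was found in the windows of Nqo1, Gpx1, Gpx3, Gstm2 and Gsto1, which says only that these letters are not there, and Hmox1 had no entry.

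Gstm1 (ENSMUSG00000058135, chromosome 3, 108012255 to 108017973) and Gstm2 (ENSMUSG00000040562, chromosome 3, 107981702 to 107986453) lie on the minus strand of one cluster of mu-class transferase genes. Their coding sequences, 657 bases each, are 86% identical. The longest run they share in the coding sequence is 60 bases, coding bases 193 to 252 in both, in exon 4 of Gstm1 (GRCm38 chr3:108016526-108016585, minus strand). It is shown because a read inside it could not be assigned to one of the 2 genes.
Gstm1 and Gstm2: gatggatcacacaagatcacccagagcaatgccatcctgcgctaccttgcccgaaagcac
Counted in runs of 31 bases on both strands, 2.92% of Gstm1 was also in Gstm2, 14.6% in Gstm3 and 25.4% in the pseudogene Gstm2-ps1, and 32.3% was shared with some other gene. For Gstm2, 19.5% was shared with another gene, 9.38% with the pseudogene Gm6665 and 3.77% with Gstm1. In the last 400 bases of the transcript with most counts, the part nearest to where TagSeq reads start, Gstm1 and Gstm2 shared none. There 9.19% of Gstm1 was shared with Gstm3 and 6.22% of Gstm2 with Gm6665. These partners held almost no counts over all 12 samples, 1 for Gstm3, 1 for Gm6665 and 0 for Gstm2-ps1. How many reads the authors' counting moved between these genes was not tested, so the levels of Gstm1 and Gstm2 carry that uncertainty. Of the remaining members, Gclm shared 2.58% of its sequence with other genes and none shared more.

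Over the 4 stages, 7 of the 9 tested members changed in edgeR's quasi-likelihood F test at a Benjamini-Hochberg adjusted p under 0.05. Of all 12052 tested genes 23.2% did. Because the members were chosen with earlier results of these data known, their count is a description and not a test of them as a group. The 7 were both metallothioneins, both peroxidases and the 3 transferases, while Nqo1 and Gclm did not pass. Every adjusted p below is from edgeR's quasi-likelihood test, adjusted over all genes tested.

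**Figure D1:**
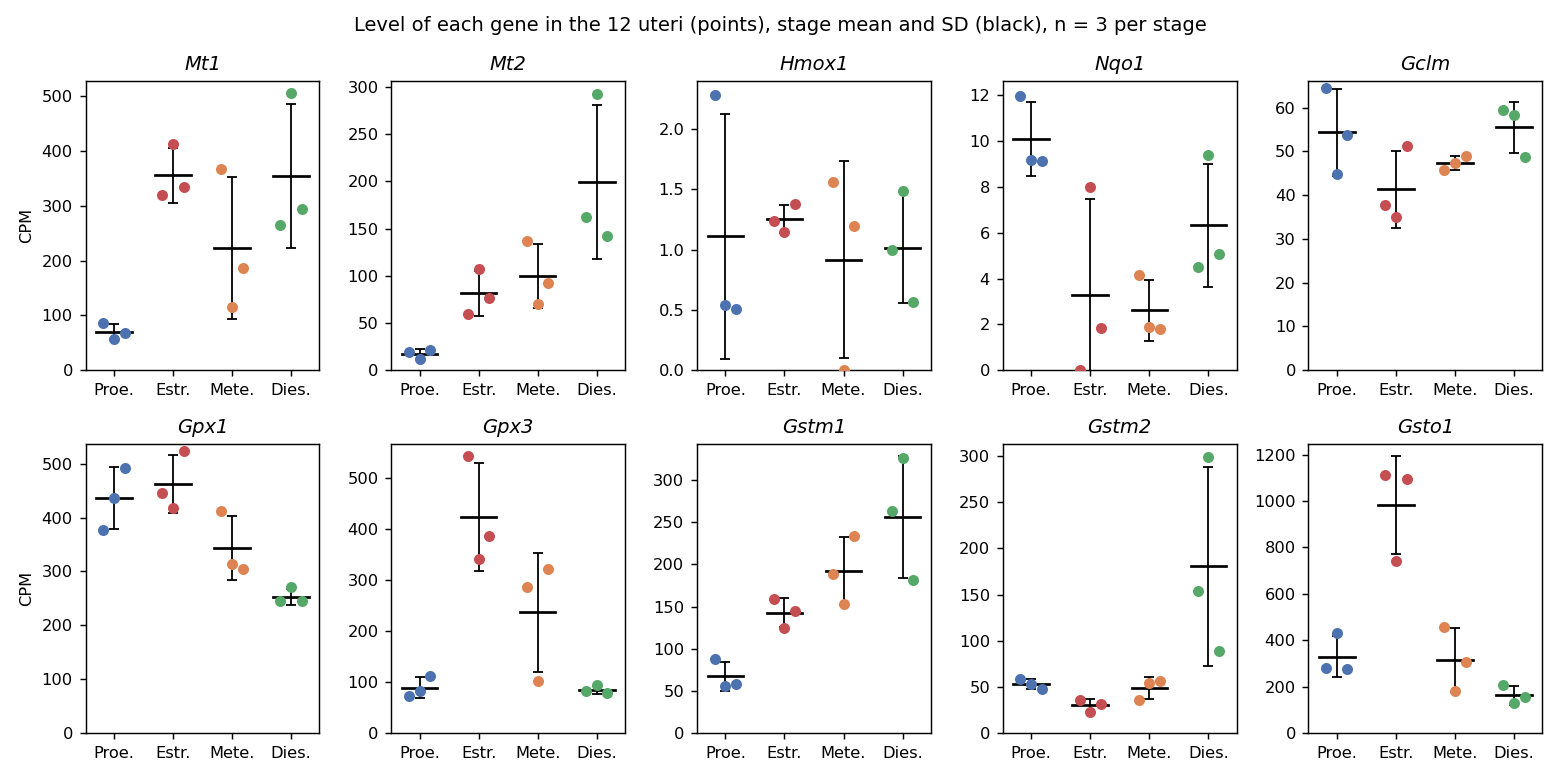
Level of each of the 10 genes in CPM (vertical axes, each from 0 and on its own scale) in the 12 uteri (points), by stage (horizontal axis), with the stage mean and SD in black, n = 3; the lower bar of Nqo1 in estrus is clipped at 0. Mt1, Mt2 and Gstm1 were lowest in all 3 proestrus uteri, Gpx3 and Gsto1 highest in all 3 estrus uteri and Gstm2 highest in all 3 diestrus uteri.

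Both metallothionein genes rose from proestrus to estrus, and Mt2 was higher still in diestrus. Mt1 stood at 86.1, 57.1 and 67.5 CPM in proestrus, 319, 413 and 335 CPM in estrus, 367, 116 and 187 CPM in metestrus and 265, 506 and 294 CPM in diestrus. Each proestrus value was below every value of the other 3 stages, which overlapped one another. The Mt1 mean was 70.3 ± 14.7 CPM (SD, n = 3) in proestrus and 356 ± 50.2 CPM in estrus, so that it rose by 2.34 ± 0.36 (SE) on the log2 scale (adjusted p = 0.00127). In diestrus it was 355 ± 131 CPM, a log2 difference from estrus of -0.00 ± 0.34 (adjusted p = 0.998). From diestrus back to proestrus it fell by 2.34 ± 0.36 on the log2 scale (adjusted p = 0.00159). The metestrus mean of 224 ± 129 CPM lay between, and its log2 difference of 1.67 ± 0.36 from proestrus (adjusted p = 0.0218) kept its direction but missed the threshold when a proestrus library was left out, with log2 differences of 1.84, 1.54 and 1.64 (adjusted p = 0.0525, 0.1 and 0.0889) without replicates 1, 2 and 3. Without metestrus replicates 5, 6 and 7 it was 1.11, 1.99 and 1.80 (adjusted p = 0.0371, 0.0029 and 0.0333).

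Mt2 stood at 18.8, 11.9 and 21.8 CPM in proestrus, 60.0, 107 and 76.9 CPM in estrus, 137, 70.1 and 92.4 CPM in metestrus and 163, 292 and 142 CPM in diestrus. The 3 proestrus values were the lowest of the 12 and the 3 diestrus values the highest, and estrus and metestrus overlapped. The proestrus mean was 17.5 ± 5.11 CPM, and the rise to the estrus mean of 81.3 ± 23.8 CPM was 2.21 ± 0.36 on the log2 scale (adjusted p = 0.00166). Diestrus, at 199 ± 81.4 CPM, was higher than estrus by a log2 difference of 1.29 ± 0.31 (adjusted p = 0.00872), a 2.45-fold difference. The largest difference of any member followed, an 11.3-fold fall from diestrus to proestrus (log2 -3.50 ± 0.36, adjusted p = 9.19e-05). Metestrus, at 99.8 ± 34 CPM, was above proestrus by 2.51 ± 0.36 on the log2 scale (adjusted p = 0.00509). That difference was 2.21 to 2.71 without any 1 metestrus library (adjusted p at most 0.0124). Its step to diestrus, 0.99 ± 0.30, did not pass (adjusted p = 0.211). An antisense gene, Gm45774, overlaps Mt2 on the opposite strand, and the use of strand in the counting is not given in the sources used here.

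Of the 3 members introduced above as NRF2 targets, Hmox1 was too low to test and Nqo1 and Gclm did not pass the F test. This does not speak for other NRF2 targets, some of which are given below. Hmox1 (ENSMUSG00000005413, chromosome 8, 75093621 to 75100589) had 24 estimated counts over the 12 samples, 4, 1 and 1 in proestrus, 2, 2 and 3 in estrus, 3, 0 and 2 in metestrus and 2, 3 and 1 in diestrus. In 11 of the 12 samples that is at or under the limit a count of 0 allows, so no difference between stages was detectable at this depth. Nqo1 (ENSMUSG00000003849, chromosome 8, 107388225 to 107403206) had 125 counts, 21, 17 and 18 in proestrus, 0, 14 and 4 in estrus, 8, 3 and 3 in metestrus and 9, 19 and 9 in diestrus. The proestrus values, 9.13 to 12.0 CPM, were above every estrus and metestrus value and overlapped diestrus. The fitted fall from proestrus to estrus, 1.61 ± 0.68 on the log2 scale, did not pass (adjusted p = 0.123), nor did the F test (adjusted p = 0.143). Estrus replicate 4 alone held 8.01 CPM, without which the estrus mean was 0.916 in place of 3.28 CPM and the F test passed (adjusted p = 0.0264).

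Gclm (ENSMUSG00000028124, chromosome 3, 122245557 to 122270732) moved least of the 9 tested genes. It lay at 64.5, 44.7 and 53.8 CPM in proestrus, 37.7, 34.9 and 51.3 CPM in estrus, 45.6, 47.3 and 48.9 CPM in metestrus and 59.3, 58.3 and 48.7 CPM in diestrus. Stages next to each other in the order of their means overlapped, and the highest stage mean was 1.34 times the lowest. The F test gave an adjusted p of 0.233. Its log2 difference between diestrus and estrus, 0.42 ± 0.18, had an adjusted p of 0.106, which became 0.0403 without estrus replicate 5. The genes Gm17494, on the opposite strand, and Gm6061, on the same strand, overlap Gclm.

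The 2 glutathione peroxidases, both selenium-dependent, both changed over the stages, Gpx1 with its lowest values in diestrus and Gpx3 with its highest in estrus. Gpx1 (ENSMUSG00000063856, chromosome 9, 108338903 to 108340343) encodes the intracellular enzyme of most tissues. It stood at 378, 437 and 493 CPM in proestrus, 447, 418 and 523 CPM in estrus, 412, 313 and 305 CPM in metestrus and 245, 270 and 245 CPM in diestrus. Each diestrus value was below all 9 others. The diestrus mean, 253 ± 14.9 CPM, was lower than the estrus mean of 462 ± 54.5 CPM by a log2 difference of -0.87 ± 0.16 (adjusted p = 0.00162). Proestrus, at 436 ± 57.6 CPM, was higher than diestrus by 0.78 ± 0.16 on the log2 scale (adjusted p = 0.00688). Its difference from estrus was 0.09 ± 0.15 (adjusted p = 0.748), and the metestrus mean, 343 ± 59.4 CPM, did not differ from any stage past the threshold.

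Gpx3 (ENSMUSG00000018339, chromosome 11, 54902453 to 54910377), which encodes the secreted enzyme, rose from proestrus to estrus and was lower again in diestrus. It stood at 72.4, 81.4 and 113 CPM in proestrus, 544, 341 and 387 CPM in estrus, 286, 102 and 322 CPM in metestrus and 82.8, 93.4 and 78.1 CPM in diestrus. Every estrus value exceeded the other 9, and metestrus replicate 6 fell within the proestrus range while replicates 5 and 7 stood near estrus. The means were 88.8 ± 21.1 CPM for proestrus and 424 ± 106 CPM for estrus, a rise of 2.25 ± 0.34 on the log2 scale (adjusted p = 0.00108). Diestrus, at 84.8 ± 7.86 CPM, was lower than estrus by a log2 difference of -2.32 ± 0.34 (adjusted p = 0.000417). The metestrus mean was 237 ± 118 CPM, and its difference from proestrus, 1.41 ± 0.33 on the log2 scale (adjusted p = 0.032), kept its direction without any 1 library, but missed the threshold without any 1 of 7 libraries, with log2 differences of 1.14 to 1.62. Without metestrus replicates 5, 6 and 7 it was 1.25, 1.78 and 1.14 (adjusted p = 0.0546, 0.00049 and 0.0999).

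The 2 mu-class transferases both changed over the stages, and both had their highest stage mean in diestrus. Gstm1 stood at 87.3, 55.5 and 58.4 CPM in proestrus, 158, 125 and 145 CPM in estrus, 189, 153 and 234 CPM in metestrus and 263, 326 and 181 CPM in diestrus. The proestrus values lay below the other 9, and all diestrus values lay above all estrus values, with metestrus overlapping both. Its mean rose from 67.1 ± 17.6 to 143 ± 16.9 CPM between proestrus and estrus (log2 fold change 1.09 ± 0.24, adjusted p = 0.00764). Metestrus, at 192 ± 40.6 CPM, was above proestrus by a log2 difference of 1.52 ± 0.24 (adjusted p = 0.00677), which was 1.36 to 1.66 without any 1 metestrus library (adjusted p at most 0.0193). From diestrus, at 257 ± 72.5 CPM, to proestrus Gstm1 fell by 1.94 ± 0.24 on the log2 scale (adjusted p = 0.000323). Diestrus exceeded estrus by 0.85 ± 0.23 (adjusted p = 0.0162), a call lost without estrus replicate 4 (adjusted p = 0.0577) or diestrus replicate 4 (adjusted p = 0.0684). The Gstm1 step from metestrus to diestrus, 0.42 ± 0.23, did not pass (adjusted p = 0.518).

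Most Gstm1 counts, 96.3%, were assigned to 1 transcript of 597 bases annotated as a processed transcript, whose last 400 bases are all found in coding transcripts of the gene too. With protein-coding transcripts only, which hold the rest of its counts, the F test for Gstm1 had an adjusted p of 0.1 in place of 0.000589. There the log2 difference was 0.33 from proestrus to estrus (adjusted p = 0.692) and 0.09 for metestrus minus proestrus (adjusted p = 0.952). It was -1.32 from diestrus to proestrus (adjusted p = 0.102) and 0.99 for diestrus minus estrus (adjusted p = 0.129), so none of these calls was kept. The calls for Gstm1 rest on the counts given to that 1 transcript.

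Gstm2 stood at 58.2, 52.8 and 47.2 CPM in proestrus, 35.9, 22.3 and 31.6 CPM in estrus, 35.3, 53.7 and 56.6 CPM in metestrus and 154, 300 and 88.9 CPM in diestrus. All diestrus values were above the other 9, and estrus lay below proestrus without overlap. Diestrus, at 181 ± 108 CPM, exceeded estrus, at 29.9 ± 6.94 CPM, by a log2 difference of 2.60 ± 0.36 (adjusted p = 0.000311). From diestrus to proestrus, at 52.7 ± 5.49 CPM, Gstm2 fell by 1.78 ± 0.34 on the log2 scale (adjusted p = 0.0059). The step from metestrus, at 48.5 ± 11.6 CPM, to diestrus was 1.91 ± 0.35 (adjusted p = 0.0443), and its call was lost in 9 of the 12 fits without 1 library. In 8 of these 9 fits the step was 1.72 to 2.01 on the log2 scale, and without diestrus replicate 4 it was 1.33 (adjusted p = 0.101). Without metestrus replicates 5, 6 and 7 it was 1.72, 1.98 and 2.03 (adjusted p = 0.107, 0.0381 and 0.0399). In estrus Gstm2 was lower than in proestrus by a log2 difference of -0.82 ± 0.37, which did not pass (adjusted p = 0.15).

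When the counts of Gstm1 to Gstm7 were summed, so that reads moved between these 7 genes could not matter, the sum changed over the stages. It also holds Gstm5 and Gstm7, with means of 28.3 and 5.79 CPM in proestrus and 65.2 and 135 CPM in diestrus. The sum therefore does not show how Gstm1 or Gstm2 alone changed. The mean of the sum was 160 ± 21.1 CPM in proestrus, 220 ± 31.7 CPM in estrus, 346 ± 63.1 CPM in metestrus and 649 ± 103 CPM in diestrus (F test adjusted p = 3.14e-05). The step from estrus to metestrus was 0.65 ± 0.18 on the log2 scale (adjusted p = 0.0407), and diestrus exceeded estrus by 1.56 ± 0.18 (adjusted p = 7.88e-05). The sum fell by 2.02 ± 0.18 on the log2 scale from diestrus to proestrus (adjusted p = 4.09e-05). The steps from proestrus to estrus, 0.46 ± 0.18 (adjusted p = 0.0925), and from metestrus to diestrus, 0.91 ± 0.18 (adjusted p = 0.0611), did not pass.

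Gsto1 (ENSMUSG00000025068, chromosome 19, 47854970 to 47864790), the omega-class transferase known for reducing dehydroascorbate, peaked in estrus. It stood at 281, 432 and 274 CPM in proestrus, 1113, 740 and 1095 CPM in estrus, 455, 181 and 305 CPM in metestrus and 205, 127 and 154 CPM in diestrus. Every estrus value was above the other 9, diestrus lay below proestrus without overlap, and metestrus overlapped both. The mean rose from 329 ± 89.1 to 983 ± 211 CPM between proestrus and estrus (log2 fold change 1.58 ± 0.30, adjusted p = 0.00396). It fell by 1.65 ± 0.30 on the log2 scale to 314 ± 137 CPM in metestrus (adjusted p = 0.00617). Without metestrus replicates 5, 6 and 7 that difference was -2.02, -1.34 and -1.60 (adjusted p = 0.000829, 0.022 and 0.0179). Diestrus, at 162 ± 39.5 CPM, was 6.06-fold lower than estrus (log2 -2.60 ± 0.31, adjusted p = 0.00011). The difference between proestrus and diestrus, 1.02 ± 0.30, had an adjusted p of 0.0525. Of its counts 99.2% were assigned to 1 processed transcript, whose last 400 bases are all in coding transcripts of the gene, so Gsto1 could not be tested on protein-coding transcripts alone. Cfap43, a cilia gene at 1.04 to 21 CPM, overlaps Gsto1 on the opposite strand. Its mean was also highest in estrus, with stage means of 3.28, 15.3, 5.21 and 7.14 CPM from proestrus to diestrus.

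**Figure D2:**
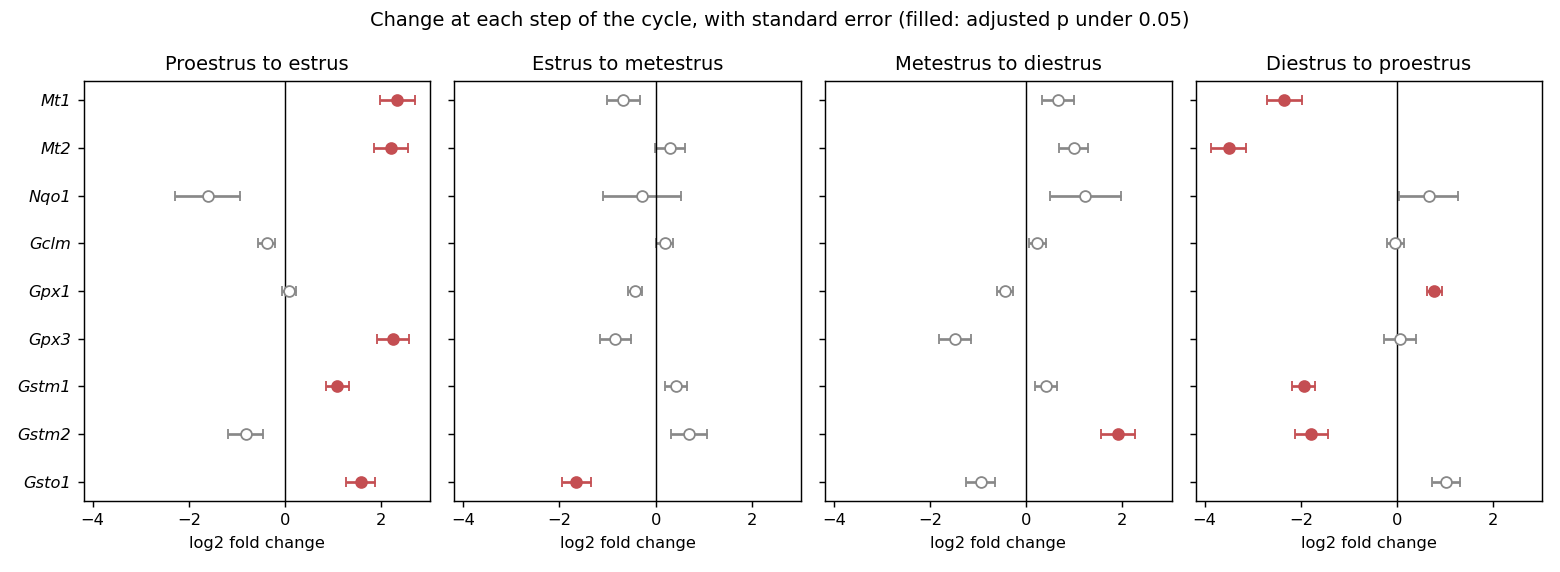
Log2 fold change with its standard error (horizontal axes) of the 9 tested genes (rows) at each of the 4 steps of the cycle (panels); filled points have an adjusted p under 0.05. Mt1, Mt2, Gpx3, Gstm1 and Gsto1 are filled to the right of 0 at the step into estrus, and Mt1, Mt2, Gstm1 and Gstm2 to the left of 0 at the step from diestrus to proestrus.

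Of the 4 steps of the cycle, those into estrus and into proestrus each changed 5 members. From proestrus to estrus 5 of the 9 tested members changed, all upward (Mt1, Mt2, Gpx3, Gstm1 and Gsto1), beside 17.1% of all tested genes, 9.67% higher and 7.46% lower. From diestrus to proestrus 5 changed, of which Mt1, Mt2, Gstm1 and Gstm2 fell and Gpx1 rose, beside 8.53% of all genes (4.62% higher, 3.91% lower). From estrus to metestrus Gsto1 fell and no other member passed, beside 7.56% of all genes (2.83% higher, 4.73% lower). From metestrus to diestrus Gstm2 rose and no other member passed, beside 0.224% of all genes (0.133% higher, 0.0913% lower). Without metestrus replicate 5 the estrus to metestrus count was 3, beside 1364 of all 12397 genes tested in that fit, against 911 with all libraries. The metestrus to diestrus count was 3 without metestrus replicate 6, beside 1.4% of all genes, and 0 without metestrus replicate 5, beside 0.0968%, or without any 1 of 8 other libraries.

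Across the cycle, metestrus was higher than proestrus for 4 members (Mt1, Mt2, Gpx3 and Gstm1), beside 4.31% of all genes (2.49% higher, 1.82% lower). That count was 2 without any 1 of the 3 proestrus replicates, beside 1.51%, 0.629% and 0.874% of all genes without replicates 1, 2 and 3. Diestrus differed from estrus for 6 members, Mt2, Gstm1 and Gstm2 being higher and Gpx1, Gpx3 and Gsto1 lower, beside 22.8% of all genes (9.72% higher, 13.0% lower). The 6 comparisons share samples, so their counts are not independent of each other. Over the 9 tested members the median log2 fold change was 1.09 from proestrus to estrus, -0.28 from estrus to metestrus, 0.42 from metestrus to diestrus and -0.03 from diestrus to proestrus. It was -0.07 for metestrus minus proestrus and 0.42 for diestrus minus estrus, and over all tested genes the 6 medians lay between -0.02 and 0.02.

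The ratio of counts within 3 pairs of related genes is given as a description, without a test, because the pairs were chosen after the values had been seen. A ratio of counts of 2 genes also carries their different capture, so only its values across stages are set side by side. Mt2 over Mt1 was 0.208 to 0.323 in proestrus, 0.188 to 0.259 in estrus, 0.373 to 0.603 in metestrus and 0.483 to 0.613 in diestrus. All values of the first 2 stages lay below all values of the last 2 (mean log2 ratio -2.03 ± 0.35, -2.16 ± 0.23, -1.06 ± 0.35 and -0.85 ± 0.18, SD, n = 3 each).

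Gstm2 over Gstm1 was 0.667 to 0.951 in proestrus, 0.179 to 0.227 in estrus, 0.187 to 0.350 in metestrus and 0.491 to 0.920 in diestrus. Here estrus and metestrus lay below proestrus and diestrus without overlap (mean log2 ratio -0.32 ± 0.26, -2.27 ± 0.18, -1.99 ± 0.45 and -0.64 ± 0.47). Gpx3 over Gpx1 was 0.186 to 0.229 in proestrus, 0.740 to 1.22 in estrus, 0.327 to 1.05 in metestrus and 0.319 to 0.346 in diestrus. All proestrus values were below the other 9, and metestrus ran from within the diestrus range to within the estrus range (mean log2 ratio -2.31 ± 0.16, -0.15 ± 0.38, -0.69 ± 0.86 and -1.58 ± 0.06).

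**Figure D3:**
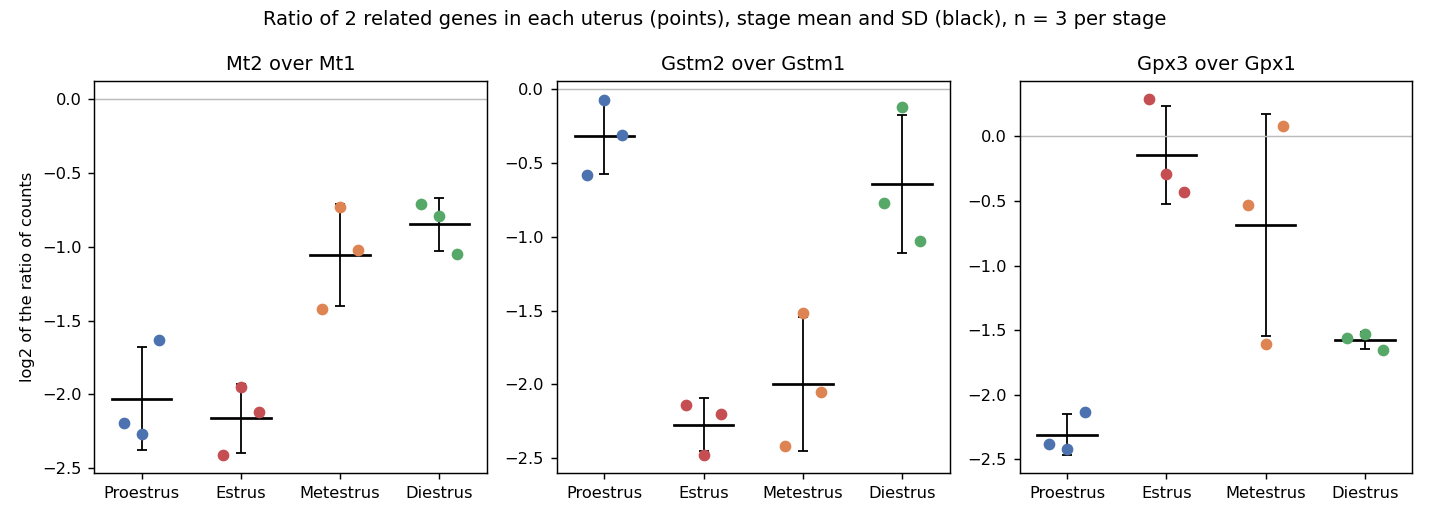
Log2 ratio of the counts of 2 related genes (vertical axes) in each uterus (points) by stage (horizontal axes), with the stage mean and SD in black, n = 3; the grey line marks equal counts. Mt2 over Mt1 is higher in metestrus and diestrus, Gstm2 over Gstm1 is lower in estrus and metestrus, and Gpx3 over Gpx1 is lowest in proestrus.

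The tested genes whose log2 CPM followed each changing member most closely over the 12 samples are given as a description, since samples of one stage share that stage. They were Tceal9 (Pearson r 0.928) and Pdgfra (0.923) for Mt1, and Asphd2 (0.937) and Nsg1 (0.935) for Mt2. For the peroxidases they were Micall2 (0.959) and Padi1 (0.958) with Gpx1, and Cog4 (0.963) and Trafd1 (0.956) with Gpx3. For the transferases they were Matn2 (0.949) and Fzd1 (0.936) with Gstm1, Zc3hav1l (0.94) and Hmgn3 (0.933) with Gstm2, and Pigr (0.973) and Smpdl3a (0.968) with Gsto1. Pigr, the receptor that carries immunoglobulin A across epithelia, had stage means of 135, 921, 148 and 56.6 CPM from proestrus to diestrus.

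Of 114 related redox genes in 8 lists, 91 were tested and 37 changed in the F test, beside the 23.2% of all genes. The lists, too, were chosen with earlier results of these data known, so their counts are a description. In metallothionein and zinc handling 1 of 7 tested genes changed, the zinc and manganese importer Slc39a8, which had means of 49.5 ± 9.43 CPM in proestrus and 156 ± 29.2 CPM in estrus (adjusted p = 0.00626). Mtf1, the metal sensor, lay between 14.7 and 22.9 CPM (F test adjusted p = 0.276), Mt3 was too low to test and Mt4 was at 0. In glutathione synthesis and recycling 7 of 14 changed. Chac2, which degrades glutathione, had stage means of 30.3, 44.6, 14.0 and 8.76 CPM from proestrus to diestrus (adjusted p = 0.000217). G6pdx and Pgd, which supply NADPH, were highest in proestrus, at 68.8 ± 10.4 and 61.2 ± 9.5 CPM, and lower in diestrus, at 35.6 ± 4.05 and 39.5 ± 3.19 CPM (adjusted p = 0.00229 and 0.0206). Ggct, a glutamyl cyclotransferase, was higher in diestrus than in estrus by a log2 difference of 1.54 ± 0.35 (adjusted p = 0.00647). Gclc, the catalytic partner of Gclm, had an adjusted p of 0.194.

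The other glutathione peroxidases did not pass the F test, with adjusted p = 0.135 for Gpx2, 0.598 for Gpx4, 0.51 for Gpx7 and 0.313 for Gpx8, and Gpx5 and Gpx6 were at 0. Of the other glutathione transferases 6 of 14 tested changed, beside 23.2% of all genes. Gstm7, in the same cluster as Gstm1 and Gstm2, had stage means of 5.79, 4.66, 34.8 and 135 CPM from proestrus to diestrus and was higher in diestrus than in estrus by 4.79 ± 0.68 on the log2 scale (adjusted p = 0.000346). Mgst3, a microsomal enzyme, was highest in proestrus, at 56.5 ± 11.3 CPM, and Gstt2, of the theta class, was highest in estrus, at 147 ± 32.4 CPM. The alpha-class Gsta3 had stage means of 6.18, 4.51, 1.36 and 0.332 CPM, those of metestrus and diestrus under the level that a count of 0 allows.

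In the thioredoxin and peroxiredoxin system 6 of 19 changed, beside 23.2% of all genes. Txnip, which binds and inhibits thioredoxin, had stage means of 131, 719, 327 and 176 CPM and rose into estrus by 2.45 ± 0.27 on the log2 scale (adjusted p = 0.000227). Txnrd1, a thioredoxin reductase, was lower in diestrus than in estrus by a log2 difference of -0.82 ± 0.18 (adjusted p = 0.00561). Sesn3, a sestrin, rose into estrus by 0.93 ± 0.18 (adjusted p = 0.00363), and Msrb2, a methionine sulfoxide reductase, fell by 1.62 ± 0.31 on the log2 scale (adjusted p = 0.00383). Among the superoxide dismutases and catalase 1 of 5 changed: Cat, with means of 38.0 ± 10.2 CPM in proestrus and 62.1 ± 4.67 CPM in diestrus (adjusted p = 0.0334).

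In heme and iron handling 6 of 10 changed, beside 23.2% of all genes. In estrus 4 were higher than in proestrus, beside 9.67% of all genes. The ferroxidase Cp had stage means of 88.4, 476, 80.2 and 38.1 CPM (F test adjusted p = 1.37e-05). The iron exporter Slc40a1 and the transferrin receptor Tfrc were lower in diestrus than in estrus by log2 differences of -3.90 ± 0.64 and -1.34 ± 0.31 (adjusted p = 0.000885 and 0.00777). Ftl1, a ferritin subunit, rose into estrus by 0.58 ± 0.17 (adjusted p = 0.028). Among NRF2 regulators and other targets 10 of 18 changed, beside the same 23.2%. Of these 18 genes, 5 were higher and 1 lower in estrus than in proestrus, beside 9.67% and 7.46% of all genes. Nfe2l2 itself rose from 118 ± 22.8 to 170 ± 17.1 CPM (adjusted p = 0.0358) and Sqstm1, which binds the NRF2 inhibitor KEAP1, from 158 ± 23.2 to 348 ± 18.7 CPM (adjusted p = 0.00127). Tkt, a pentose phosphate enzyme, fell by 1.12 ± 0.18 on the log2 scale over the same step (adjusted p = 0.00159). Me1, another source of NADPH, was lower in diestrus than in estrus by -1.79 ± 0.25 (adjusted p = 0.000324).

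In a further list, of 8 genes known to respond to glucocorticoids, 4 changed in the F test, beside 23.2% of all genes. Klf9 had stage means of 136, 347, 326 and 276 CPM and rose into estrus by 1.35 ± 0.21 on the log2 scale (adjusted p = 0.00133). Fkbp5 was highest in diestrus, at 13.9 ± 2.69 CPM against 4.43 ± 1.45 CPM in proestrus (adjusted p = 0.0191). Zbtb16 had stage means of 3.65, 3.03, 22.7 and 22.1 CPM, with an SD of 29.5 CPM in metestrus. Errfi1 was highest in metestrus, at 70.7 ± 46.7 CPM, and no pair of stages passed for it.

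**Figure D4:**
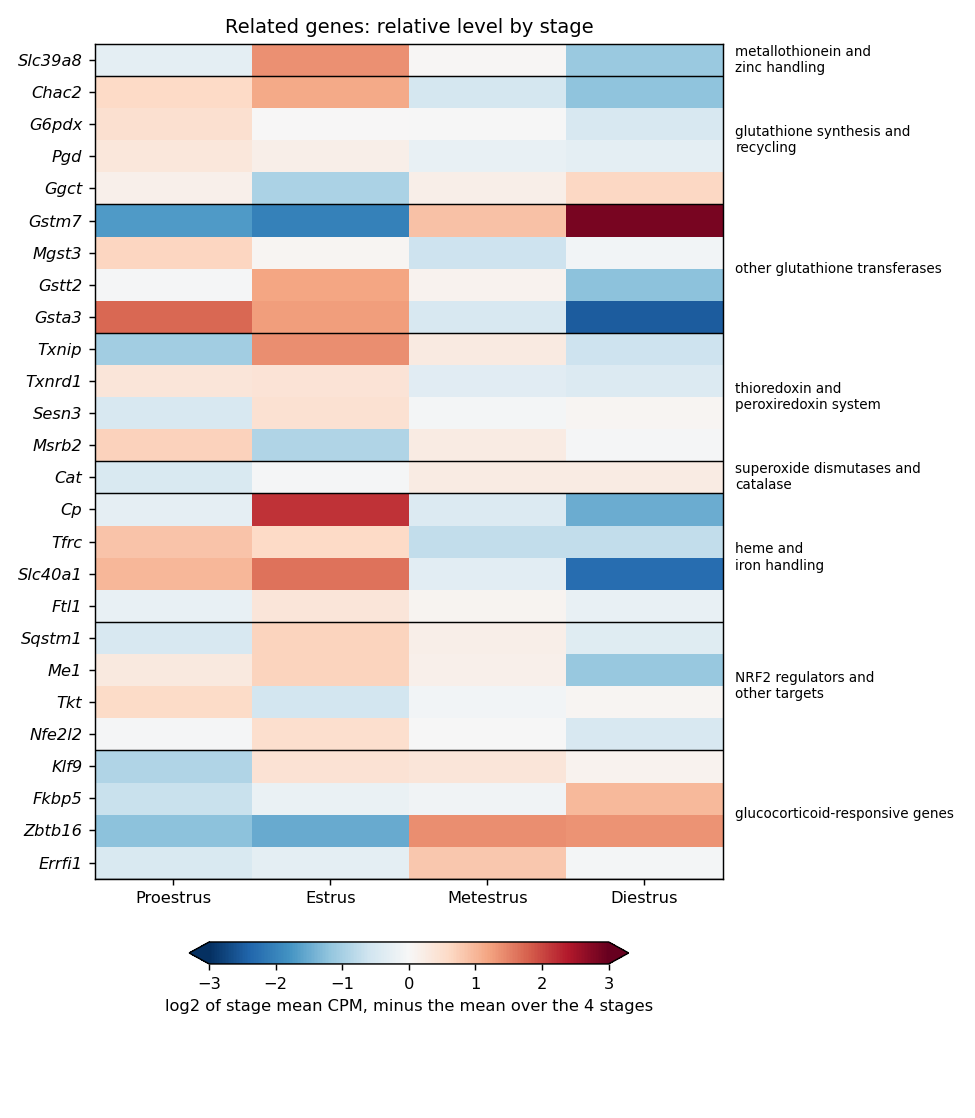
Stage mean of each named related gene (rows, grouped by list) as log2 CPM minus its mean over the 4 stages (colour), by stage (columns). Cp, Slc39a8 and Txnip are highest in estrus, while Gstm7 and Fkbp5 are highest in diestrus.

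Markers of the cell types in these whole uteri also moved with the stages, and in bulk tissue fewer cells of a type and less RNA per cell cannot be told apart. Beside the counts of changed markers stand the 23.2% of all genes that changed in the F test. For 8 macrophage markers, of which 6 of 7 tested changed in the F test, the summed level was 552 to 610 CPM in estrus. That was above 234 to 299 in proestrus, 350 to 540 in metestrus and 326 to 423 in diestrus. Gpx3 and Gsto1 were highest in the same 3 uteri, as were the oviduct and neutrophil sums below. For 5 smooth muscle markers, of which 2 changed, the sum was 7400 to 9450 CPM in estrus and 5590 to 7670 in proestrus. It was 4960 to 6640 in metestrus and 5550 to 5960 in diestrus. For 6 epithelial markers, all of which changed, the sum was 1190 to 1590 CPM in proestrus, 1250 to 1530 in estrus, 584 to 1010 in metestrus and 628 to 762 in diestrus, and Gpx1 was also higher in proestrus and estrus than in diestrus. Of 6 stromal markers 2 changed, and their sum was 9300 to 9410 CPM in proestrus, 7650 to 8170 in estrus and 6680 to 8980 in diestrus, while in metestrus it was 5000 CPM in replicate 5, 9780 CPM in replicate 7 and highest in replicate 6. The stromal marker Pdgfra, one of the genes most like Mt1, had stage means of 46.2, 135, 92.8 and 114 CPM from proestrus to diestrus. It was lower in proestrus than in estrus, while the stromal sum was higher, so the markers of this list did not all move together. For 4 oviduct markers, of which 1 was tested and changed, the sum was 40.3 to 50.1 CPM in estrus, 10.8 to 22.8 in proestrus, 7.78 to 26.5 in metestrus and 5.93 to 30.4 in diestrus. For 6 neutrophil markers, of which 2 of 4 tested changed, the sum was 274 to 624 CPM in proestrus, 2290 to 4100 in estrus and 26.7 to 200 in diestrus. In metestrus it was 1260 CPM in replicate 5 against 122 and 87 CPM in replicates 6 and 7. This list holds Ltf beside genes such as Retnlg and Ngp, and the sum does not show which gene carries it. It was not taken as a measure of neutrophils. Summed red blood cell markers ranged from 163 to 1430 CPM and were highest in metestrus replicate 6, the metestrus library lowest in Mt1, Mt2, Gpx3, Gstm1 and Gsto1. The part of these cell types in the members' changes was not tested.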

How the data were processed

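RNA of 12 whole mouse uteri, 3 per stage of the estrous cycle, was profiled with 3' TagSeq from 100 ng of total RNA each, per the labels' protocols. For each sample the authors deposited a table of 119414 transcripts that holds estimated counts (not whole in 66.9% of cells above 0), TPM and effective lengths, per the file headers. The deposited estimated counts were unscaled, and the deposited TPM values entered only an alternative. FastQC, kallisto and DESeq2 are named in the submitters' processing notes, with no role or order, and the transcript set, genome build and use of strand are not given in the sources used here.

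Transcripts were matched to GENCODE M21 (GRCm38), where 116640 matched. The other 2774, with 0.619% to 0.774% of a sample's counts, were left out. Estimated counts were summed per gene and rounded, filtered with filterByExpr (12052 genes), scaled with TMM (factors 0.908 to 1.05) and fitted with edgeR 4.0.16 (R 4.3.3) by quasi-likelihood, 1 coefficient per stage over all 12 samples, followed by an F test and 6 two-sided contrasts. p-values were adjusted by Benjamini-Hochberg over all genes tested, with a threshold of 0.05. The biological coefficient of variation was 20.6%. Scripts were tested on simulated data. Alternatives used limma 3.58.1, DESeq2 1.42.0, other scalings, filters and transcripts, and 1 library left out in turn. Log2 CPM used a prior count of 2.

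The text names all 10 members, from each related list up to 4 genes with the smallest p among those passing the F test, and for each changing member the 2 tested genes with the highest Pearson correlation. Values of other list genes were added after they had been seen. The members and lists were chosen with earlier results of these data known, and the 3 ratios of related genes after their values had been seen. Promoters are from RefSeq (GRCm38.p6), where 9 of the 10 members had an entry. Sequence sharing was counted in runs of 31 bases over GENCODE M21 transcripts.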

Additional observations from a re-analysis of the deposited data

How the results depend on the processing

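For single members, 29 calls and 4 values without a call were recomputed under each alternative in which the gene was tested, giving 693 values. Of these, 654 kept their direction and side of the threshold, 37 lost the call, 2 gained one and 0 reversed. Gsto1 could not be tested with protein-coding transcripts only, so its calls are not counted as lost there. The 37 lost calls belong to 8 results, and 21 of them came from leaving out 1 library. The number of members called from proestrus to estrus was 5, but 3 with protein-coding transcripts only and 5 to 6 when 1 library was left out. It was 6 with limma-voom, without a filter on low counts or with only those 2 stages fitted. Over all genes that step had 2064 calls of 12052 tested, and 1664 of 10724 with protein-coding transcripts only. There were 2014 of 12052 with limma-voom, 2147 of 20686 without the filter and 2788 of 11270 with those 2 stages. When 1 library was left out, 8.9% to 19.5% of all genes were called. From estrus to metestrus it was 1, but 2 without a filter on low counts, 0 with protein-coding transcripts only and 1 to 3 when 1 library was left out. From metestrus to diestrus 1 member was called, but 2 with DESeq2, 4 without the filter and 0 to 3 when 1 library was left out. The number was 0 with limma-voom, with counts scaled from TPM, with protein-coding transcripts only or with only those 2 stages fitted. Over all genes 27 of 12052 were called, 153 of 12052 with DESeq2 and 256 of 20686 without the filter. With limma-voom 14 of 12052 were called, with TPM 0 of 9683, with protein-coding transcripts 21 of 10724 and with those 2 stages 0 of 11176. The share was 0.0405% to 1.4% when 1 library was left out. From proestrus to metestrus 4 members were called, but 2 with counts scaled from TPM or with only those 2 stages fitted, and 2 to 4 when 1 library was left out. Over all genes 519 of 12052 were called, 156 of 9683 with TPM and 42 of 11179 with those 2 stages. The share was 0.629% to 8.71% when 1 library was left out. Protein-coding transcripts alone remove nearly all counts of Gstm1 and Gsto1, the members lost from proestrus to estrus and, for Gsto1, from estrus to metestrus. The Gstm2 call they lose from metestrus to diestrus had the same log2 fold change, 1.91 (adjusted p = 0.0526), and there and in the other cases the cause was not tested. Under each scaling the median log2 fold change of all genes stayed within 0.068 of 0.

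A replicate block could be fitted for estrus and diestrus only, which share the numbers 3, 4 and 5, and with it 6 members were called, as without it, while the count over all genes went from 2744 to 2935. The deviations of same-numbered samples had correlations of -0.0433, 0.0131 and -0.0166, so these 3 numbers were not taken to pair the samples, and other stages share too few numbers for such a check. At this depth Hmox1, with at most 4 counts in a sample, could not be compared, and Nqo1, with at most 21, only coarsely.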
